A study of Mus musculus with 2 samples.

Results

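The forkhead transcription factor genes are the mouse Fox genes, named by a letter for the subfamily and a number for the member. Members were taken by symbol, as all protein-coding genes of the mm10 annotation called Fox plus a letter and a number. The 3 X-linked genes were left out, and 1 autosomal FoxO gene is not analysed here. This left 40 members among 20665 protein-coding genes of the 19 autosomes. H3K4me3, trimethylation of lysine 4 of histone H3, was mapped by CUT&RUN, in which an antibody directs a nuclease to cut out the marked chromatin. The cells were mouse prospermatogonia, fetal male germ cells that rest before birth, sorted at E17.5 as positive for an Oct-GFP reporter. By the labels, 130000 cells went into each of 2 assays, 1 with an antibody to H3K4me3 and 1 with IgG. No further genotype or treatment is named for them. All values below come from the deposited list of 135064 H3K4me3 peaks, and the IgG assay is not analysed here. With 1 library there was no replicate and no test, so single values carry counting intervals only. The library pools many cells, so a mark in some cells and a weaker mark in all of them cannot be told apart.

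Forkhead proteins bind DNA through a winged-helix domain, and several of them open closed chromatin ahead of other factors. Most members are switched on in a few tissues of the embryo, such as gut, kidney, brain or eye, while others act in nearly all cells. H3K4me3 sits at the start sites of active genes and also, together with H3K27me3, at silent developmental genes held in a poised state. H3K27me3 and RNA are not analysed here, so active and poised genes are not told apart.

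All 40 forkhead genes had an H3K4me3 peak in the gene body or the 5 kb on either side of it, which held 210 peaks in all. The same was true of 88.5% of all autosomal protein-coding genes. At an annotated end, within 1 kb, 38 of 40 forkhead genes (95%, Wilson interval 83.5 to 98.6) had a peak, against 74.4% of all genes. The order turned for peaks of high fold, since an end peak with a fold of at least 5 was found at 14 of 40 members (35%, 22.1 to 50.5), against 57.1% of all genes. Any peak of such a fold was found at 20 of 40 members, against 77.9%. Moved by 100 kb, the windows around the ends met a peak in 12 of 40 members and in 24.2% of all genes. Forkhead genes are mostly short, and their median length was 4277 bp, against 17491 bp in all genes. Among genes up to 10 kb long, 24 of 25 members were marked at an end, against 60.5% of all such genes. Among longer genes the counts were 14 of 15 members, against 82.1% of all.

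The forkhead peaks were as tall as those of other genes but stood on a higher background. The tallest summit at a marked end had a median of 43 fragments over 38 members, from 33 to 58, against a median of 42 over 15385 marked genes. Each peak also has a local background, the number of fragments expected at the summit from its surroundings, here read as the 10 kb around it. Whether it was counted in the H3K4me3 library or in the IgG library is not settled by the files, so broad H3K4me3 signal and unspecific signal cannot be told apart in it. The highest background in the body and flanks had a median of 10.8 fragments in forkhead genes, against 6.23 in all genes with a peak. The fold enrichment is pileup plus 1 over background plus 1. The highest fold at a marked end was accordingly low, with a median of 4.02 in forkhead genes against 6.18 in all marked genes. In 19 of the 38 marked members this fold was under 4, against 9.20% of all marked genes.

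**Figure D1:**
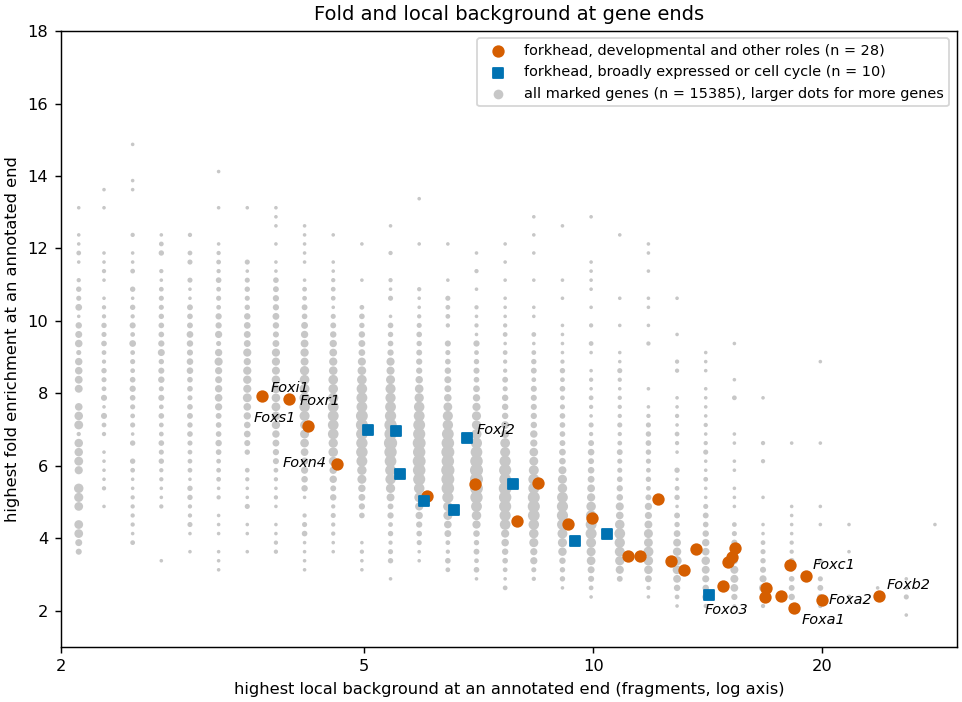
Each point gives, for a gene marked at an annotated end, the highest local background at its ends in fragments (x, log axis) and the highest fold enrichment there (y). Circles are 28 forkhead genes of developmental and other roles, squares the 10 broadly expressed or cell cycle members, and grey dots all 15385 marked genes in bins; 9 genes, none of them forkhead, lie outside the axes. Forkhead genes run from Foxi1 at a fold of 7.93 down to Foxa1 at 2.07.

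A peak with a local background of at least 10 fragments lay at 21 of 40 forkhead genes (52.5%, Wilson interval 37.5 to 67.1), against 11.2% of all genes. This threshold was chosen after the values were seen. At genes up to 10 kb long the counts were 17 of 25 members, against 13.8% of all such genes. At longer genes they were 4 of 15 members, against 9.75% of all. With the body and flanks moved by 100 kb, such a peak was met at 2 of 40 members and at 6.36% of all genes, so the high backgrounds were met at the genes and seldom 100 kb away. A background of at least 20 fragments was found at 3 members, against 0.324% of all genes. Those 3 were Foxb2, Foxa1 and Foxb1.

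**Figure D2:**
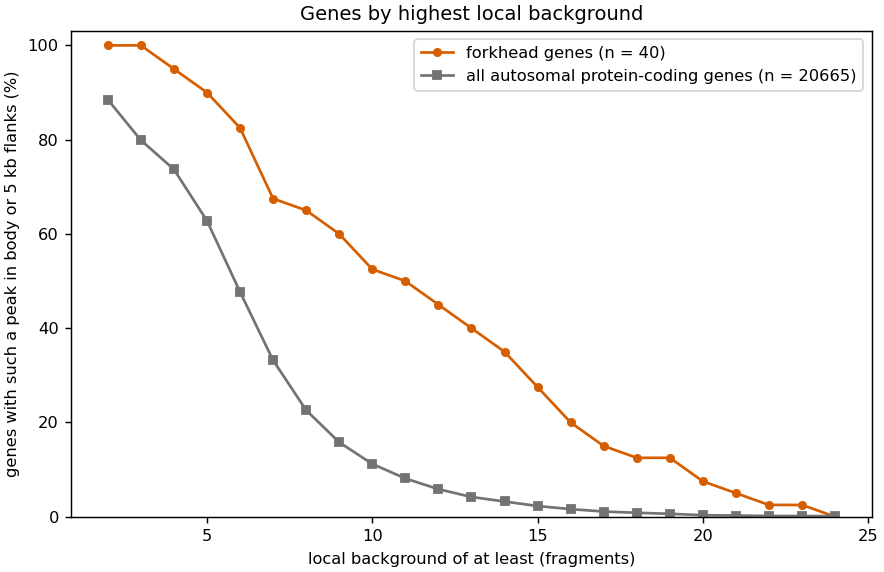
Percent of genes (y) with a peak in the body or 5 kb flanks whose local background is at least the number of fragments on the x axis, for 40 forkhead genes and for all 20665 autosomal protein-coding genes. At 10 fragments the shares are 52.5% and 11.2%.

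Forkhead genes also held more peaks than genes at large, a trait shared with the homeobox genes set beside them below. At least 4 peaks lay in the body and flanks of 23 of 40 forkhead genes, against 28.9% of all genes, a count also chosen after the values were seen. This held for 13 of 25 forkhead genes up to 10 kb long, against 14.2% of all such genes. The median was 4 peaks in these members against 1 in all such genes. Peaks covered a median of 14.5% of body and flanks in short forkhead genes, against 8.98% in all short genes. The median width over all 210 peaks, 35 of them in Foxp2, was 427 bp in forkhead bodies and flanks, against 677 bp in those of all genes. The widest peak of each gene was closer, with a median of 1138 bp in forkhead genes against 1250 bp in all genes with a peak, and 1080 bp against 1113 bp among genes up to 10 kb long.

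**Figure D3:**
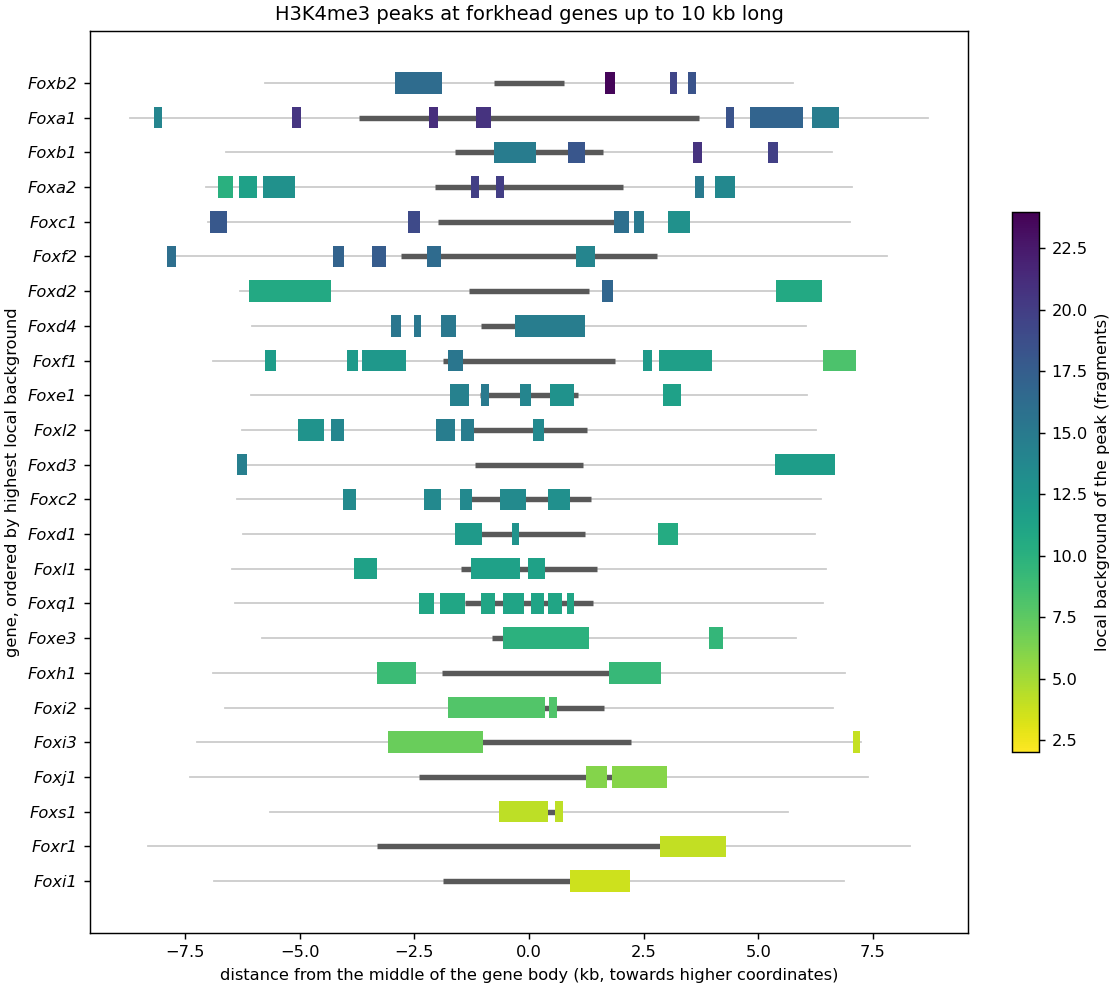
Peaks (bars) of 24 forkhead genes up to 10 kb long, drawn by distance in kb from the middle of the gene body (dark line) with 5 kb flanks (light line) and coloured by local background in fragments. Genes are ordered by highest background, from Foxb2 at 23.73 to Foxi1 at 3.67. Genes at the top hold several scattered peaks, and genes at the bottom 1 or 2 peaks over an end.

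Sequence before the start site was compared for the 25 members with an entry in the RefSeq promoter table of GRCm38.p6, the same build as mm10. The bases shown end just before the start site and run 5′ to 3′ along the gene, with each CpG in capitals. The 6 genes were chosen after their values were seen. Foxk2 and Foxj2 are broadly expressed members rich in CpG, and Foxi2 and Foxr1 carry a peak over the start site with fewer CpG. Foxd3 and Foxa1 are CpG-rich developmental members without a peak within 1 kb of the start site. The listed start site of Foxa1 lies inside the gene, and the annotated end on that side does have a peak of 172 bp within 1 kb.
Foxk2, chr11:121259737-121259986, plus strand: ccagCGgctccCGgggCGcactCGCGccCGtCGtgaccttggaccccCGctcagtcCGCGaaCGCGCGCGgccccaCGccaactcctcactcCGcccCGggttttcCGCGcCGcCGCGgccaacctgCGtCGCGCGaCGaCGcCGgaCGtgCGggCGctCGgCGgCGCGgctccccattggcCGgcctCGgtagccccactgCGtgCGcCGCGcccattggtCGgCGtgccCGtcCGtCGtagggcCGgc
Foxj2, chr6:122819934-122820183, plus strand: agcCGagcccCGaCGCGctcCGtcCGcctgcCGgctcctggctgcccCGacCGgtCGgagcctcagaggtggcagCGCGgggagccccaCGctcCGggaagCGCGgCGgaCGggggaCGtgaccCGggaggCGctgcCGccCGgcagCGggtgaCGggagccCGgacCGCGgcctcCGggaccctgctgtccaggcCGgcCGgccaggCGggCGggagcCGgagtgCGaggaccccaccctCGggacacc
Foxi2, chr7:135410117-135410366, plus strand: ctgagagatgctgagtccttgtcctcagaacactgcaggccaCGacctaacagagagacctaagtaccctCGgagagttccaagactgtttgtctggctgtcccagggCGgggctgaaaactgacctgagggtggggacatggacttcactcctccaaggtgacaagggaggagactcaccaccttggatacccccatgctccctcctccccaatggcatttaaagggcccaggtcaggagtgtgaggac
Foxr1, chr9:44440869-44441118, minus strand: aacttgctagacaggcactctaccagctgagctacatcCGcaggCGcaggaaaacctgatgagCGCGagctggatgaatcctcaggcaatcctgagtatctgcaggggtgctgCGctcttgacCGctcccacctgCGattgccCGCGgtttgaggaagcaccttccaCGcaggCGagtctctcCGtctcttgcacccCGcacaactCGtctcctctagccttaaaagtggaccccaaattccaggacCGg
Foxd3, chr4:99656049-99656298, plus strand: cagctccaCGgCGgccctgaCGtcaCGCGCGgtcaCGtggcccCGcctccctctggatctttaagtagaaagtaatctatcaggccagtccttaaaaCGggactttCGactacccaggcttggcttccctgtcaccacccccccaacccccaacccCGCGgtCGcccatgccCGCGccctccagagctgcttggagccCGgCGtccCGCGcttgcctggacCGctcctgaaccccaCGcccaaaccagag
Foxa1, chr12:57546112-57546361, minus strand: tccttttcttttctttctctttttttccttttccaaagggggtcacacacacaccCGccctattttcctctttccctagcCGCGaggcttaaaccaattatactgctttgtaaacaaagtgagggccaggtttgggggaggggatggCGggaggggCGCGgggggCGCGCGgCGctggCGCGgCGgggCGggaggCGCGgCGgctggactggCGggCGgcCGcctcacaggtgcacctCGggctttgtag

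These promoters spanned the range of the family, from 48 CpG in the 250 bases of Foxk2 to 3 in those of Foxi2. Foxj2 had 36, Foxa1 and Foxd3 had 21 each, and Foxr1 had 15. The 25 members have 29 listed start sites, with a median of 17 CpG, against 10 for the 20085 listed start sites of all autosomal protein-coding genes. Of start sites with at least 10 CpG, 17 of 21 forkhead sites had a peak within 1 kb, against 99.1% of all such sites. The 4 sites without one belonged to Foxa1, Foxd3 and Foxa2, which has 2 of them. Nearby peaks of these 3 genes had backgrounds of up to 21.11 fragments at Foxa1, 14.57 at Foxd3 and 19.97 at Foxa2. A summit of 47 fragments over such a background, as inside Foxa2, gave a fold of only 2.29. Whether the background set by the surroundings kept summits at these start sites out of the list was not tested. Of sites with fewer CpG, 4 of 8 forkhead sites were marked, against 42.4% of all such sites.

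The listed start base itself lay inside a peak in 12 of 25 members (48%), against 60.4% of all genes with a listed start site. Peaks within 1 kb of a start were found in 20 of 25 members (80%), against 73.3%, but those with a fold of at least 5 in 8 of 25, against 56.2%. At Foxk2 and Foxj3 the start lay in a gap between a peak on each side, 284 bp and 3 bp from the nearer one. At Foxj2 and Foxi3 a single peak ran across it.

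**Figure D4:**
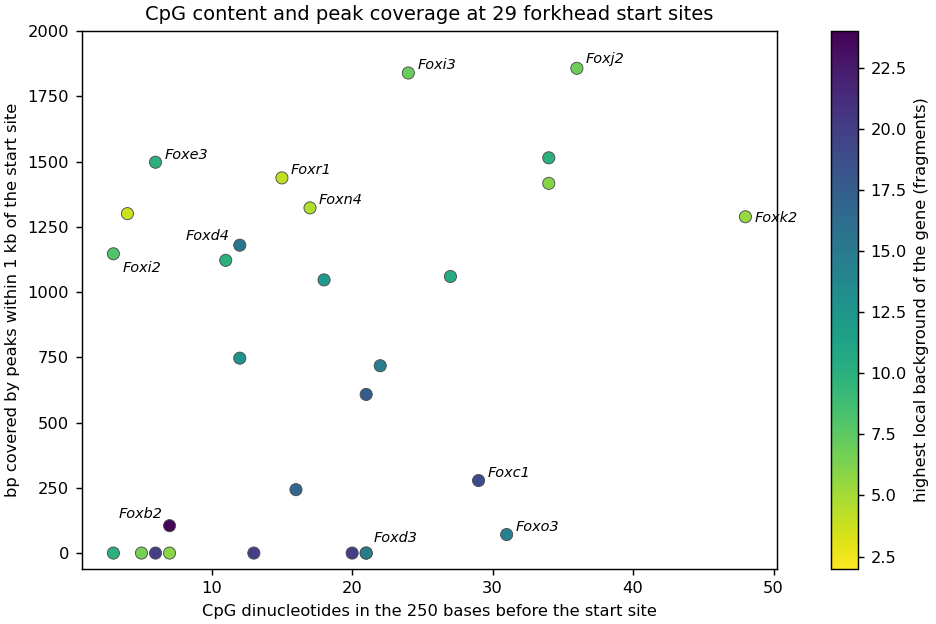
Each point is 1 of 29 listed start sites of 25 forkhead genes, with the CpG count of the 250 bases before it (x) and the bp covered by peaks within 1 kb on either side (y), coloured by the highest local background of the gene in fragments. Foxj2 has 36 CpG and 1858 bp covered, while Foxd3 has 21 CpG and 0 bp and Foxo3 31 CpG and 71 bp.

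The forkhead binding word TGTTTAC, searched on both strands and so also read as GTAAACA, was present in 1 of 29 forkhead promoters, against 2.64% of all promoters of this length. That promoter is the one of Foxa1 shown above, where gtaaaca lies 141 to 135 bases before the listed start. Other spellings of the motif were not searched.

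Members were then grouped by the tissue they are known for. Of all genes, 74.4% had a peak at an end and 11.2% a background of at least 10 fragments. The 8 genes of endoderm and gut all had a peak at an end, and all 8 had a background of at least 10 fragments. Foxa1, a pioneer factor of liver and other gut-derived organs, held 7 peaks. Its only end peak had 39 fragments over a background of 18.36, a fold of 2.07 (Poisson interval 1.48 to 2.81). This was the lowest end fold of the family. Foxa2, which acts in endoderm, node and floor plate, also held 7 peaks, and its end peak had 47 fragments over 19.96. Both genes had peaks in both flanks and in the body, with none over a listed start site. Foxa3, which acts in liver, differed, since a peak of 1047 bp with 43 fragments crossed its start site. Its highest end fold of 5.07 (3.61 to 6.94) came from a peak at the other end, within reach of the neighbouring gene Sympk.

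In the other endoderm and gut members the end folds lay between 2.41 and 3.72. Foxf1, a factor of lung and gut mesenchyme, had peaks over 26.0% of its body and flanks, the highest share of the family. Its end peak of highest fold had 46 fragments over 11.64. In Foxf2, related to it, the end peak of highest fold had 44 over 17.65, and in Foxl1, of the gut mesenchyme, 43 over 11.52. Foxe1, needed for the thyroid, reached 3.33 with 45 fragments over 12.80. Foxq1, known for hair and stomach, showed 6 peaks at its ends on a nearly even background of 10.97 to 11.12 fragments, with a highest fold of 3.51. These 5 genes held 3 to 7 separate peaks each, and none was wider than 1150 bp.

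The 5 mesoderm genes were all marked at an end, and 4 had a background of at least 10. Foxc1 (chr13:31806646-31810635), which acts in the eye and blood vessels, had the tallest end summit of the family, shared with Foxb2, at 58 fragments (44.0 to 75.0). Over a background of 19.02 this gave a fold of 2.95 (2.25 to 3.79). Foxc2, known for lymphatic vessels, had 4 end peaks and a highest fold of 3.71 with 51 fragments. Both genes thus combined tall summits with a low fold. Foxd1, of the kidney stroma, had a peak of 599 bp over its start site with 43 fragments and a fold of 3.37. Foxd2, its relative, had only a 243 bp peak near its start, with 41 fragments over 16.83, but wider peaks of 1780 and 1019 bp in its flanks. Foxs1 (chr2:152931898-152933208) stood apart from these 4, with a peak of 1080 bp over most of its body and one of 169 bp beside it. The wide peak had 36 fragments over 4.20, a fold of 7.11 (5.04 to 9.77).

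The 11 genes of nervous system, eye and ear were all marked at an end and fell on both sides, with 5 of 11 at a background of at least 10. Foxb2 had the highest background of the family, 23.73 fragments, under a summit of 58 fragments (44.0 to 75.0). Its fold there was 2.39 (1.82 to 3.07). That peak, 229 bp wide, began 896 bp from the start site, and no peak touched the gene body. Foxb1, a factor of the hypothalamus, reached 20.75 fragments, and its highest end fold was 3.27 with 51 fragments. Foxd4 had a peak of 1520 bp over its start with 54 fragments over 14.77. Foxp2 (chr6:14901349-15441977), known for its part in vocal learning, had 35 peaks over 16499 bp, the most of the family, and end peaks on a background of up to 13.15 with a highest fold of 3.11. These genes were on the high side of the group.

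On the low side stood Foxi1 (chr11:34204341-34208089), an inner ear and kidney factor, with a single peak of 1301 bp over its start. It had 36 fragments (25.2 to 49.8) over 3.67, and its fold of 7.93 (5.62 to 10.90) was the highest of the family. Foxn4, of retinal and spinal neurons, was similar, with 1 peak of 1577 bp and a fold of 6.06, although the neighbouring gene Acacb lay in its flanks. Foxi3, of ectodermal placodes, had a peak of 2067 bp and a fold of 5.50, and Foxi2 one of 2125 bp, the widest peak of the family, and a fold of 4.48. Foxe3, a lens gene, had a peak of 1886 bp over its start and 49 fragments over 9.95. Foxo6 (chr4:120267078-120287261), expressed in the brain, had 3 end peaks and a highest fold of 5.52 (4.04 to 7.36). Apart from Foxo6, which held 7 peaks over 4606 bp, each of these genes had its widest peak over the start site.

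Genes with roles in the early embryo and the gonad also differed among themselves. Foxd3 (chr4:99656299-99658671), which acts in pluripotent cells and neural crest, had no peak within 1 kb of an end. Its body lay between a peak of 222 bp that ended 4967 bp before the start site and a peak of 1293 bp with 47 fragments beyond the other end. Both stood on high backgrounds, 14.57 and 11.82 fragments. Foxh1 (chr15:76667829-76671614), which binds Smad proteins in Nodal signalling, had a peak of 1125 bp with 44 fragments over 9.27 and a fold of 4.38 (3.21 to 5.85). The genes Kifc2 and Ppp1r16a lie within 5 kb of Foxh1, and to which gene that peak belongs was not tested. Foxl2 (chr9:98955607-98958126), the factor that maintains granulosa cells of the ovary, had 5 peaks of 241 to 567 bp. Its highest end fold was 2.67 (1.93 to 3.60), with 41 fragments over 14.73, so this female gonad gene stood with the developmental genes of high background. Foxr1 (chr9:44434234-44440868) had a single peak of 1438 bp over its start, with 38 fragments (26.9 to 52.2) over 3.98 and a fold of 7.83 (5.60 to 10.67). No other protein-coding gene lay within 5 kb of Foxr1.

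Of the remaining tissue genes, Foxj1, which drives formation of motile cilia, had peaks of 461 and 1207 bp at 1 end and a fold of 5.16 (3.64 to 7.12) with 35 fragments. Foxn1 (chr11:78357577-78386783), needed for thymus epithelium, had no peak at an annotated end and none within 10173 bp of its listed start site. Its 3 peaks lay from 1002 bp inside the gene at the other end, with folds of up to 6.63. Like Foxd3 it lacked a peak at both ends and at the start, but its highest background was low, at 5.94 fragments.

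The 10 broadly expressed or cell cycle members were all marked at an end, with a median highest fold of 5.27. Of these 10 genes, 2 had a background of at least 10. All were over 10 kb long, at 12893 to 597405 bp, against a median of 3759 bp in the other 30 members. Of all genes over 10 kb long, 82.1% were marked at an end and 9.75% had such a background. Class and gene length were not separated. Foxm1, which drives genes of mitosis, had a peak of 1818 bp across its end of lower coordinate, with 37 fragments over 5.58 and a fold of 5.78 (4.11 to 7.91). Rhno1 and Tex52 lie within 5 kb of it. Foxj2 (chr6:122820184-122845366) had a peak of 1880 bp across its start with 52 fragments (38.8 to 68.2) over 6.83, a fold of 6.77 (5.09 to 8.84). Foxj3 (chr4:119539661-119629119), needed for sperm formation in the mouse, had peaks of 826 and 973 bp on the sides of its start, the taller with 34 fragments over 5.96. Foxk1 (chr5:142401497-142462015) and Foxk2 (chr11:121259987-121309900) restrain genes of the starvation response. Foxk1 had peaks over 4784 bp and an end fold of 4.79 (3.38 to 6.62). Foxk2 had an end fold of 6.96 (5.10 to 9.29) with 44 fragments over 5.47. The highest background at an end of these 5 genes was 5.50 to 6.83, near the median of 6.23 in all marked genes.

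Foxn2 had 4 peaks at 1 end and a highest fold there of 5.50, with 47 fragments over 7.73. Foxn3 (chr12:99190081-99563667) had a peak of 959 bp at its end of higher coordinate with a fold of 6.99 (5.06 to 9.42). Its listed start site lies inside the gene, 17861 bp from the nearest peak. Foxp1 (chr6:98925342-99522746), which acts in B cells, lung and heart among other tissues, had peaks over 6001 bp. Its end peak of highest fold was 613 bp wide with 40 fragments over 9.45. Near a listed start site inside Foxp1, 3 peaks had folds of 5.60 to 6.35 on backgrounds of 6.68 to 6.72. Foxp4 (chr17:47867133-47924632), related to it, had peaks over 6811 bp, with 5 of them near its start on backgrounds of 10.35 to 10.43. Foxo3 (chr10:42181845-42276695), which keeps oocytes of primordial follicles dormant, had the lowest end fold and the highest background of this group. Its only end peak was 172 bp wide and began 930 bp from the start site, with 36 fragments (25.2 to 49.8) over 14.17 and a fold of 2.44 (1.73 to 3.35). Its start site has 31 CpG, and its background lay within the range of the endoderm and gut genes.

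**Figure D5:**
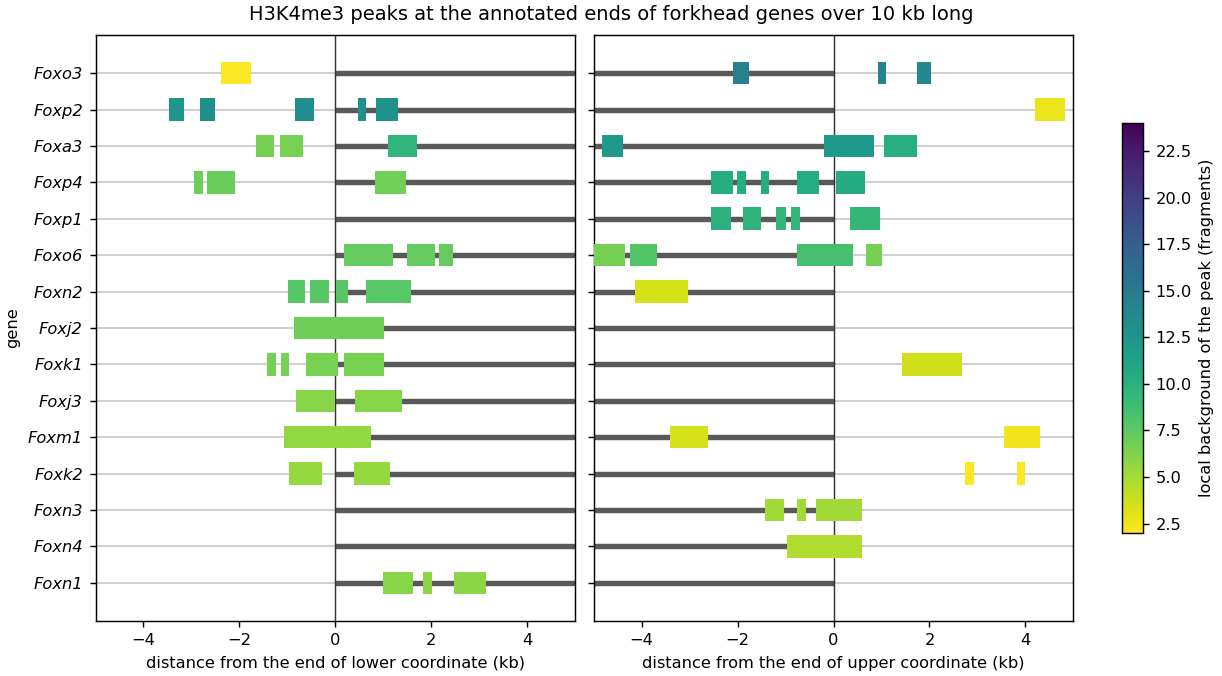
Peaks (bars) within 5 kb of the ends of lower (left) and higher (right) coordinate of the 15 forkhead genes over 10 kb long, coloured by local background in fragments; the dark line is the gene body. Foxo3 at the top has its end peak on 14.17 fragments, Foxj2 and Foxm1 have 1 block each across an end, and Foxn1 has none within 1 kb of an end.

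Some members lay in wide stretches of the mark. Wide domains were the widest 5% after neighbouring peaks no more than 1000 bp apart were merged, which gave a threshold of 2001 bp. Such a domain held an end of 14 of 40 members (35%, Wilson interval 22.1 to 50.5), against 17.4% of all genes. This order depended on the merging, since without it the widest 5% of peaks held an end of 7 of 40 members, against 19.8% of all genes. Broadly expressed members accounted for 6 of the 14 and endoderm and gut genes for 4, which were Foxf1, Foxf2, Foxe1 and Foxq1.

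Some members lie close together, and their peaks were counted separately. Foxf1, Foxc2 and Foxl1 follow each other on chromosome 8 with 28016 and 8789 bp between them. Foxd2 and Foxe3 lie 15544 bp apart on chromosome 4, and Foxq1 and Foxf2 64839 bp apart on chromosome 13. No peak fell in the windows of 2 members. All 3 genes of the chromosome 8 group had backgrounds over 11 fragments, from 11.52 at Foxl1 to 15.36 at Foxf1. Foxd2 and Foxe3 differed, at 16.83 and 9.95 fragments. Without members that had another protein-coding gene in the body or flanks, 18 of 28 had a background of at least 10, against 8.35% of all such genes.

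Homeobox genes, another class of developmental regulators, were set beside the forkhead genes. A background of at least 10 was found at 21 of 40 forkhead genes and 35 of 39 clustered Hox genes. It was found at 65 of 70 other homeobox genes chosen by symbol prefix, against 11.2% of all genes. At least 4 peaks lay at 23 of 40 forkhead, 29 of 39 Hox and 53 of 70 other homeobox genes, against 28.9%. Neighbouring Hox genes of a cluster can hold the same peaks in their windows, and such peaks were counted for each gene. Fold values of at least 5 at an end were found at 14 of 40 forkhead genes, 2 of 39 Hox genes and 5 of 70 other homeobox genes, against 57.1% of all genes. These differences were not tested.

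Partners and targets of forkhead proteins were marked in most lists. All 10 targets of Foxm1 in mitosis were marked at an end, with a median highest fold of 6.68, led by Plk1 at 8.90. Of targets of Foxj1 in motile cilia 9 of 9 were marked, with a median of 7.33, and none had a background of at least 10. Of Foxh1 partners and Nodal targets 8 of 9 were marked, all but Lefty1. Of liver targets of Foxa proteins 3 of 8 were marked, Apoa1, Igfbp1 and Pck1. The share marked among all genes was 74.4%.

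The sorted cells carried the mark at an end of 7 of 9 germ cell markers, a share of 77.8% against 74.4% of all genes. Ddx4 and Dazl were among them, and Nanos2 and Nanos3 were not. Of markers of other testis cells it was found at an end of 3 of 6 for Sertoli, 1 of 5 for Leydig and 1 of 4 for endothelial and blood cells. The Sertoli genes Gata4 and Nr5a1 had no end peak, but their bodies and flanks held peaks on backgrounds of 18.03 and 17.35 fragments. The part of other cells in the forkhead peaks was not tested.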

How the data were processed

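The submitters' processing notes name MACS2 2.1.0, Bowtie2 2.5.0, Trim Galore, deepTools 3.5.1, SAMtools 1.16.1, bedtools 2.27.1 and the builds mm10 and sacCer3, with no role or setting. For each summit the authors deposited a fold enrichment, which is a ratio, with its −log10 p and −log10 q. In 99.999% of peaks the score that the authors deposited was the −log10 q times 10, cut to a whole number. These are the authors' values for single peaks. Pileup and local background were solved for 135053 peaks, within 0.0001, from the fold as defined in the results and a Poisson −log10 p. Backgrounds above the lowest, 2.11, lay on multiples of 0.0158, which is 158 bp over 10000 bp. Peak names carry the letters IgG, but that step has no factor for a second library; which library gave the background is not settled. Depth is unknown.

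Genes came from the RefSeq table of GRCm38.p6, and starts from its promoter table. Calculations used scipy 1.17.1, pandas 2.3.3 and numpy 2.4.6 in Python 3.11.15, and figures matplotlib 3.10.9. Intervals are 95% Wilson for shares and exact Poisson for pileups. The Poisson intervals cover counting error of fragments only. The Wilson intervals treat genes as random draws, although the members are all genes that the rule took. Neither covers the spread between libraries. For medians over genes, alternatives were held to the 95% order-statistic interval, which also treats genes as random draws. On simulated data 100% of 200 planted genes were called, with 0 others among 20665. The simulated peaks were set across ends of genes that stood alone, so this outcome followed from the design. The simulation checks the overlap step only and gives no accuracy for calls in the real data, where genes can have close neighbours. Members, lists and role classes were chosen with earlier results of these data known. Thresholds for background, peak number and CpG, and the homeobox genes, were chosen after the values were seen. The rule for named genes took the 6 members of most covered length, the 6 of highest end fold, members without an end peak and genes of gonad or germ cells; Foxl3, also in that rule, is not analysed here. The other members are named within their class, apart from 1 that counts in the totals and is not reported here.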

Additional observations from a re-analysis of the deposited data

How the results depend on the processing

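Of 47 alternatives, 32 kept the value within the interval of the reported one and 15 moved it; for medians this is the 95% order-statistic interval, 1799 to 2833 bp for covered length. Stricter peaks moved most. With a fold of at least 5, 50% of forkhead genes had any peak, 35% an end peak and 32% a start-site peak, and the median covered length was 240 bp. All genes then had 77.9%, 57.1% and 56.2%, so all 3 excesses became deficits. With a −log10 q of at least 10 the same values were 90%, 67.5%, 48% and 1544 bp, against 84.7%, 68.4% and 67.9% of all genes, so the order turned at ends and start sites. A pileup of at least 20 left all 4 as reported. The reported values were 100%, 95%, 80% and 2208 bp, against 88.5%, 74.4% and 73.3% of all genes. The median covered length was 1178 bp in bodies alone, 1566 bp with flanks of 1 kb and 2862 bp with flanks of 10 kb, as it must change with the window. Within 500 bp of an end 82.5% of forkhead genes were marked. The share of all genes in this narrower window is not reported here, so 82.5% cannot be set beside 74.4%. Wide domains held 14 members as reported, 7 without merging, 4 for the widest 1% and 21 for the widest 10%, against 17.4%, 19.8%, 3.97% and 31.3% of all genes. The share with a high background ranged from 45% to 65% over 5 alternatives that were chosen after seeing the data. With a threshold of 8 fragments it was 65%, against 22.6% of all genes, and with 12 fragments 45%, against 5.85%. For the other alternatives the share of all genes is not reported here. No paired analysis was possible because there is 1 library of each kind and no replicate. Without replicates or a known depth, no interval given here covers the spread between libraries.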

Other observations

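Long forkhead genes also carried peaks deep inside the gene, over 5 kb from both ends. Over the 15 long members there were 50 such peaks in 8 genes, and 28 of them lay in Foxp2. In Foxp1, 3 of these peaks lay within 1 kb of a listed start site inside the gene, with folds of 5.60 to 6.35. The 50 peaks were close to the peaks of the list as a whole. Their median fold was 6.10, against 6.0 over all peaks, and their median background 2.62 fragments, against 3.0. Of the 50 peaks, 33 had a fold of at least 5, against 67.8% of all peaks, and 19 stood on the lowest background of the list, 2.11 fragments, against 31.1% of all peaks. The internal peaks of Foxp2 had a median pileup of 18.5 fragments and a highest fold of 10.25, although the highest fold at its ends was 3.11.

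The highest folds of several members lay away from their ends. Foxn2 had a peak of 1110 bp, 45679 bp from its end of lower coordinate, with 49 fragments over 3.38 and a fold of 11.41 (8.50 to 15.01). That peak lay within 5 kb of the end of higher coordinate, so it was not among the 50 internal peaks. The 1 internal peak of Foxn2, of 289 bp, had a fold of 10.92 (7.62 to 15.21). Foxp1 held an internal peak with a fold of 10.87. The highest fold of all members, 12.75 (9.41 to 16.92), came from a peak of 625 bp in the flank beyond the end of higher coordinate of Foxp2, on chromosome 6 from 15446179 to 15446803, with 46 fragments over 2.69. RNA starts and enhancer marks at these peaks are not analysed here.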
